A study of Homo sapiens with 6 samples.

Results

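The genes examined were 9 enzymes of glutamine, asparagine and proline metabolism, namely GLS2, GLUD1, GLUL, GOT1, GOT2, GPT2, ASNS, ALDH18A1 and PYCR1. They were taken by gene name from tables of 19491 genes, and all 9 had enough reads to be compared. The RNA came from PC-3, a human prostate cancer cell line that grows without androgen, cultured in RPMI 1640 with fetal bovine serum and pyruvate in every group. Control cells received no inhibitor, and the other groups were given 1 mM GPNA (l-γ-glutamyl-p-nitroanilide) or 10 mM BenSer (benzylserine) for 48 h, as inhibitors of the glutamine transporter ASCT2. The molar doses of the inhibitors therefore differed, and all groups derive from the same cell line. The labels name 2 libraries per group, for which the authors deposited reads per gene as CPM, a count scaled to a common library size.

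Glutamine that enters a cell is deamidated to glutamate by glutaminases such as GLS2, and glutamine synthetase (GLUL) catalyses the opposite conversion. Glutamate passes its nitrogen on through aminotransferases, which make aspartate (GOT1 in the cytosol, GOT2 in mitochondria) and alanine (GPT2 in mitochondria), or it is oxidised to α-ketoglutarate by glutamate dehydrogenase (GLUD1). Aspartate and glutamine are the substrates of asparagine synthetase (ASNS), while glutamate is the precursor of proline through ALDH18A1 and PYCR1. ASNS is a textbook target of ATF4, the transcription factor of the amino acid response, which binds composite C/EBP-ATF elements.

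The stretch before the start of a gene is shown for the 2 enzymes whose promoter window held the core letters of such an element, TGATGNAA, on either strand. Promoter windows from RefSeq (GRCh38.p14, 250 bases before to 50 after each start) were listed for 7 of the 9 enzymes, and not for GPT2 and PYCR1. The motif was found in ASNS and GOT1, and in 3.62% of all 35116 windows of 300 bases. The 250 bases before the start are printed 5′ to 3′ on the strand of the gene, with the match in capitals. Both genes lie on the minus strand, at chr7:97872409-97872658 for ASNS and chr10:99430625-99430874 for GOT1.
ASNS: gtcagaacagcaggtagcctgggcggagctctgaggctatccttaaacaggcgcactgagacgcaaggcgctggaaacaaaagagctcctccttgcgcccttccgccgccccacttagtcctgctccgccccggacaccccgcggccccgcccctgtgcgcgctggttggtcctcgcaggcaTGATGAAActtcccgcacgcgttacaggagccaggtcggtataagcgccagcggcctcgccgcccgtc
GOT1: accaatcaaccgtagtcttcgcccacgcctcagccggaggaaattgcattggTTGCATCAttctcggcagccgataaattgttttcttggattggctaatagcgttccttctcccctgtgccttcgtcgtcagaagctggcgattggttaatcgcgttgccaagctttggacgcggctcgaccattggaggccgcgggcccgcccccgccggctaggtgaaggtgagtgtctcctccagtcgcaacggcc
In ASNS the match, TGATGAAA, began 68 bases before the start (position -68 to -61) and read along the strand of the gene. In GOT1 it lay from position -198 to -191 on the opposite strand, so that it appears as TTGCATCA. A second start site of ASNS, and the windows of GLS2, GLUD1, GLUL, GOT2 and ALDH18A1, held no match. These letters mark a match in sequence and not a bound site.

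The library totals ranged from 23077986 to 32178154 reads, and BenSer was sequenced most deeply. Within groups, the 2 columns were nearly as alike as repeated draws of reads from 1 library. The chi-square statistic divided by its degrees of freedom was 1.05 to 1.06 there and 5.50 to 20.7 between groups. Each pair of columns was for this reason treated as a single sample. No difference below has a replicate check, and no p-value for a treatment is given. Differences are given on the scale of log2(CPM + 1), treated minus control, with 95% exact intervals on the summed reads that cover counting error only. A gene was called different at 1.5-fold or more on this scale. In bulk RNA, fewer cells of a type and less RNA per cell cannot be told apart. Of the marker genes examined, all 6 for PC-3 carcinoma cells were listed (summed level 970 to 1030 CPM in the 3 groups), none of 4 leukocyte and 3 endothelial genes was listed, and 3 of 4 fibroblast genes were listed at a summed 4.82 to 7.19 CPM. The androgen receptor and its targets KLK3 and KLK2 were not listed, while its target TMPRSS2 was at 16.5 CPM in control cells, 17.6 CPM with GPNA and 24.1 CPM with BenSer.

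ASNS mRNA was higher with both inhibitors, and it was the only 1 of the 9 enzymes to reach 1.5-fold in either comparison. With GPNA, 0.404% of 18828 genes were called (76 genes), and with BenSer 3.54% of 18976 (671 genes). At a threshold of 1.3-fold, ASNS was again the only enzyme with GPNA (2.89% of all genes), and with BenSer GPT2, which was higher, and GOT2, which was lower, passed beside it (12.3% of all genes). Between the inhibitors, 0 of the 9 enzymes reached 1.5-fold (1.87% of all genes) and 2, GPT2 and ASNS, reached 1.3-fold (9.03%), at unequal doses. The median of the 9 differences was 0.018 with GPNA and 0.060 with BenSer, while the median over all genes tested was -0.028 in both comparisons, which share the control libraries. The levels of every enzyme in each library column are plotted by group.

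**Figure D1:**
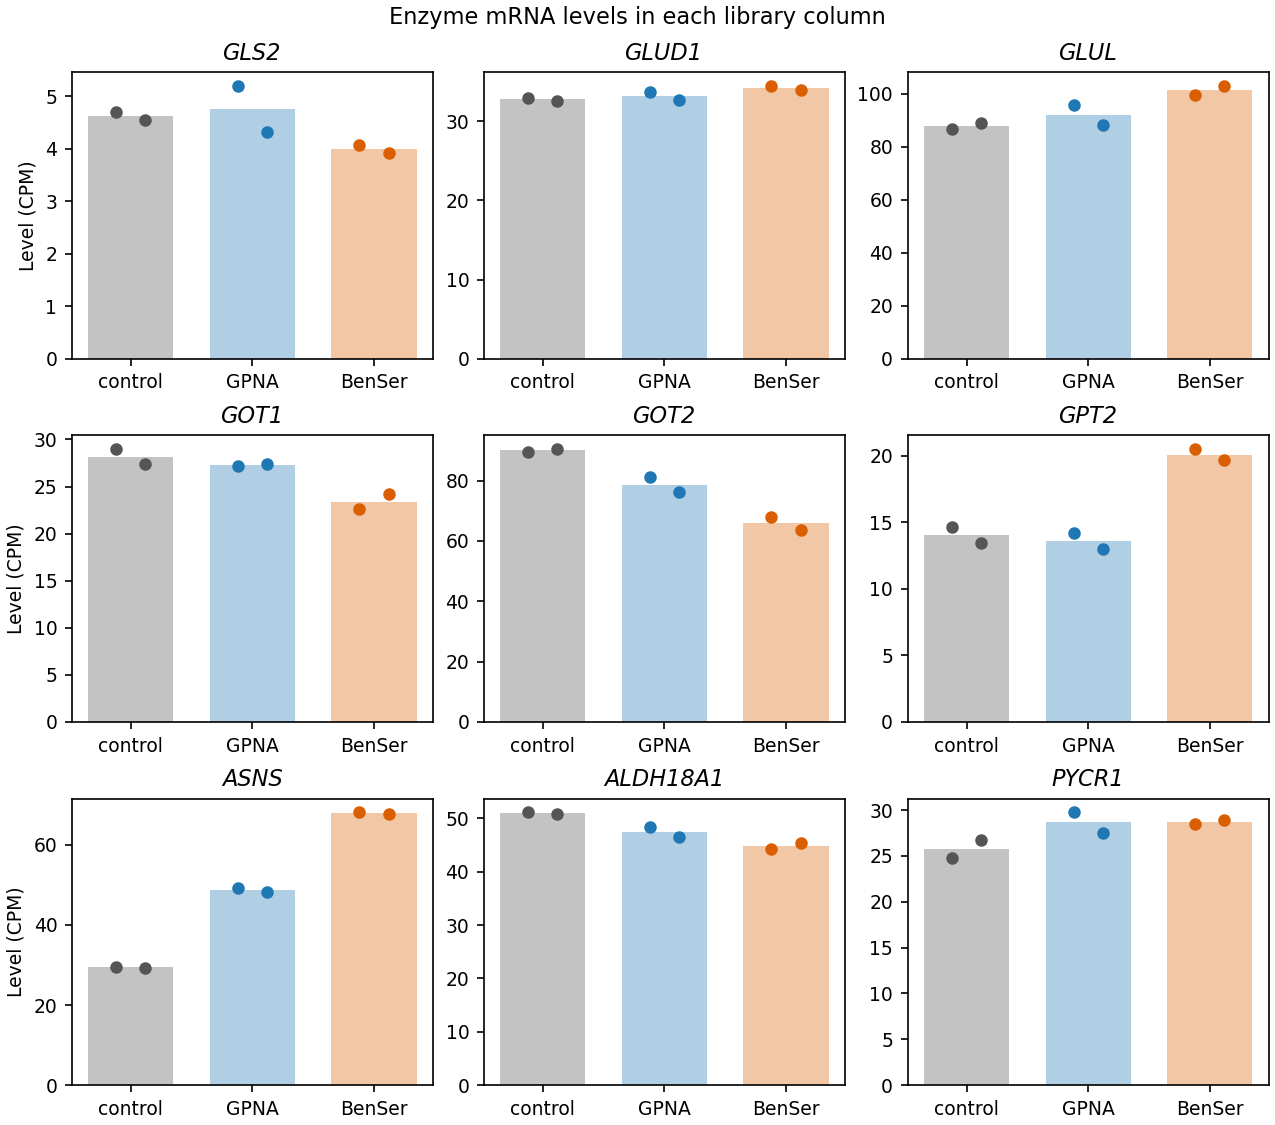
Levels of the 9 enzymes in CPM (y axes, each from 0) in control, GPNA and BenSer libraries, with bars for the mean and points for columns 1 and 2, which count as 1 sample. The columns of ASNS are stepped from 29.3 to 29.5 CPM in the control over 48.2 to 49.2 CPM with GPNA to 67.6 to 68.2 CPM with BenSer, whereas GOT2 is stepped downwards in the same order.

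ASNS (ENSG00000070669), which amidates aspartate with nitrogen from glutamine, is encoded on chromosome 7 (GRCh37, 97480989 to 97501854). Its level was 29.5 and 29.3 CPM in control cells, 49.2 and 48.2 CPM with GPNA, and 68.2 and 67.6 CPM with BenSer. The groups did not overlap, and the columns within a group differed by at most 1.95%. GPNA gave a log2 difference of 0.71 (95% interval 0.62 to 0.80, from 1362 control and 2497 treated reads) and BenSer one of 1.18 (1.09 to 1.27, from 4352 treated reads). On the CPM scale this is an increase of 65.6% and of 131%. ASNS ranked 39 from the top among 18828 genes with GPNA and 45 among 18976 genes with BenSer, and 23 other genes were at least as high in both. In the annotation, 2415 exonic bases of ASNS are shared with a long noncoding RNA on the same strand that is not listed in the tables, so the reads of both cannot be told apart here. The level with BenSer exceeded that with GPNA by 0.47 on the log2 scale (0.40 to 0.54), at unequal doses.

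**Figure D2:**
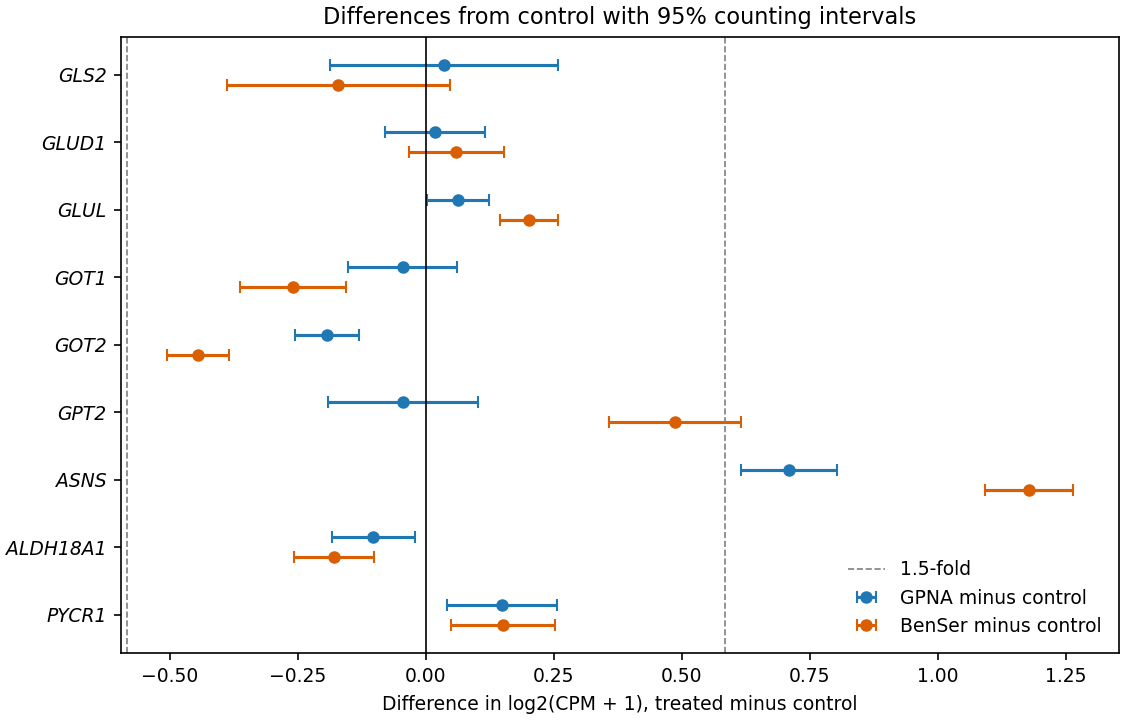
Difference in log2(CPM + 1) from the control (x axis) for each enzyme (y axis) with GPNA or BenSer, where bars are 95% counting intervals and dashed lines mark 1.5-fold. Both ASNS intervals lie above the 1.5-fold line, the GPT2 interval with BenSer (0.36 to 0.62) spans it, and GOT2 lies below 0 with either inhibitor.

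The aspartate aminotransferases were lower with BenSer, and the mitochondrial enzyme was lower with GPNA as well. GOT2 (ENSG00000125166), on chromosome 16 from 58741035 to 58768246, interconverts aspartate and glutamate in mitochondria. It had 89.6 and 90.5 CPM in control cells, 81.1 and 76.1 CPM with GPNA, and 68.0 and 63.7 CPM with BenSer. The groups did not overlap and descended in this order, with log2 differences of -0.19 with GPNA (-0.26 to -0.13) and -0.45 with BenSer (-0.51 to -0.38). Column 1 of GOT2 exceeded column 2 by 6.55% with GPNA and by 6.63% with BenSer, which was less than the distance to the control. In the BenSer comparison GOT2 ranked 827 from the bottom. Of all genes tested, 23.5% lay at least as far from 0 as GOT2 with GPNA, and 8.12% with BenSer. The GPNA difference was thus of ordinary size. GOT2 shares 162 exonic bases with a long noncoding RNA on the other strand, which is not listed.

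GOT1 (ENSG00000120053), the cytosolic counterpart, lies on chromosome 10 from 101156627 to 101190381. Its columns held 29.0 and 27.3 CPM in control cells, 27.2 and 27.3 CPM with GPNA, and 22.6 and 24.2 CPM with BenSer. Control and GPNA overlapped and BenSer lay below both. The log2 difference was -0.045 with GPNA, with an interval (-0.15 to 0.061) that included 0, and -0.26 with BenSer (-0.36 to -0.16). With BenSer, 26.1% of all genes tested lay at least as far from 0, so the GOT1 difference was of ordinary size.

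GPT2 (ENSG00000166123), which makes alanine from pyruvate with the nitrogen of glutamate, lies on the plus strand of chromosome 16 from 46918274 to 46965201. It had 14.6 and 13.5 CPM in control cells, 14.2 and 12.97 CPM with GPNA, and 20.5 and 19.7 CPM with BenSer. Only the BenSer columns stood apart. The log2 difference was 0.49 with BenSer (0.36 to 0.62), short of 1.5-fold, and -0.045 with GPNA (-0.19 to 0.10). The GPNA value changed sign without control column 1 or without GPNA column 2. BenSer lay above GPNA by 0.53 (0.41 to 0.66), and GPT2 was the enzyme with the largest gap between the inhibitors.

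**Figure D3:**
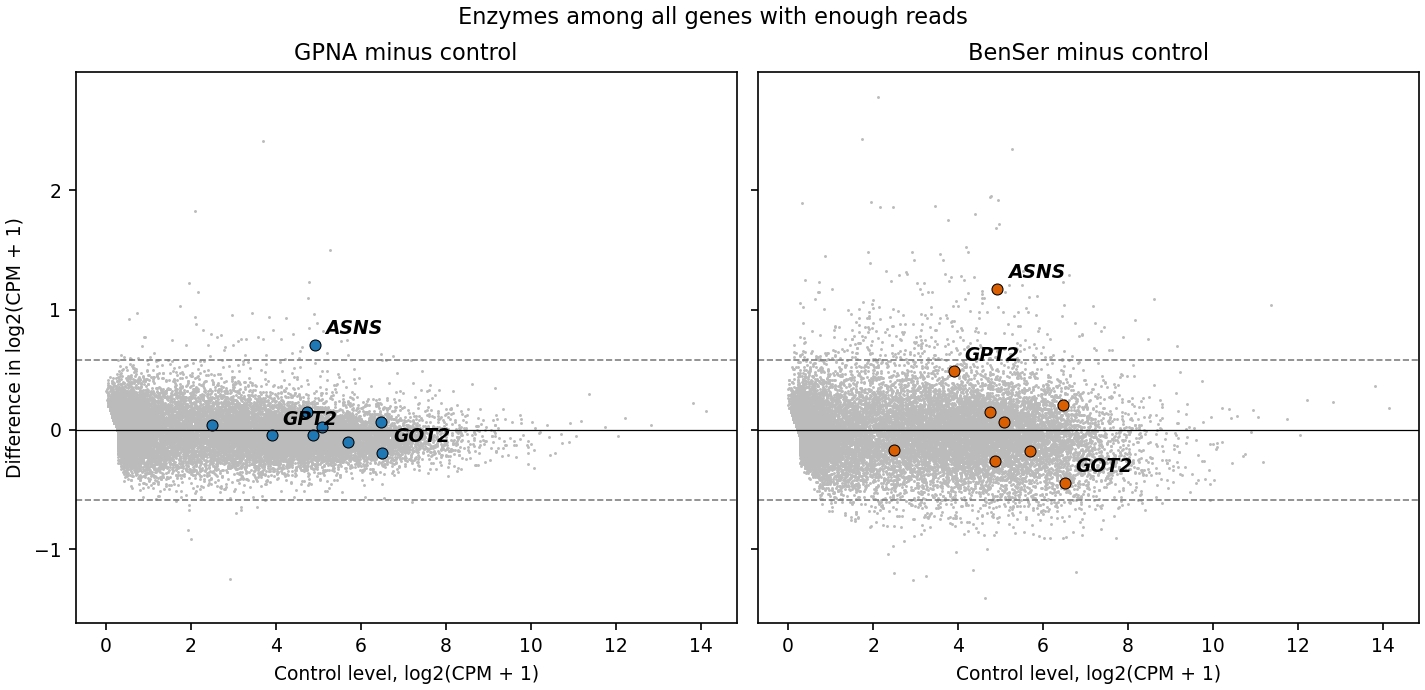
Difference in log2(CPM + 1) from the control (y axis) against the control level in log2(CPM + 1) (x axis) for all genes with enough reads (grey) and the 9 enzymes (coloured), with GPNA on the left and BenSer on the right. ASNS (0.71 and 1.18) lies above the dashed 1.5-fold line in both panels, and the other 8 enzymes lie between the dashed lines.

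The enzymes that interconvert glutamine, glutamate and α-ketoglutarate differed little from the control. GLUL (ENSG00000135821), on chromosome 1 from 182347233 to 182361341, had 86.8 and 89.0 CPM in control cells, 95.5 and 88.1 CPM with GPNA, and 99.5 and 103 CPM with BenSer. BenSer lay above the other groups, which overlapped, since GPNA column 1 was 8.43% above column 2. Its log2 difference was 0.20 with BenSer (0.15 to 0.26) and 0.062 with GPNA (0.0025 to 0.12). GLUL was the enzyme with the largest departure from read sampling between columns 1 and 2, in the GPNA libraries (two-sided exact binomial p = 0.0056, 0.15 after Benjamini-Hochberg adjustment over 27 pairs of columns). Of the 27 pairs, 3 had an unadjusted p under 0.05, the others being GOT2 with GPNA and with BenSer, and none did after adjustment.

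GLUD1 (ENSG00000148672), on chromosome 10 from 88809959 to 88854600, had 33.0 and 32.5 CPM in control cells, 33.7 and 32.6 CPM with GPNA, and 34.5 and 33.9 CPM with BenSer. Its log2 difference was 0.018 with GPNA (-0.080 to 0.12) and 0.060 with BenSer (-0.033 to 0.15), so neither was detectable at this depth. The bounds cover counting error only, so variation between cultures could leave room for a larger difference. The GPNA value changed sign without GPNA column 1. Pseudogenes named after GLUD1 can share its reads, and of these GLUD1P3 was at 2.44 CPM and GLUD1P2 at 0.41 CPM in untreated cells. On the opposite strand, GLUD1 shares 464 exonic bases with FAM35A (also named SHLD2), which was at 18.6 CPM in untreated cells.

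GLS2 (ENSG00000135423), the liver-type glutaminase, lies on chromosome 12 from 56864728 to 56882198 and was the least abundant of the 9. Its columns held 4.69 and 4.55 CPM in control cells, 5.19 and 4.32 CPM with GPNA, and 4.07 and 3.91 CPM with BenSer. From 214 control reads, the intervals were wide and included 0 with GPNA (0.035, from -0.19 to 0.26) and with BenSer (-0.17, from -0.39 to 0.047). The GPNA value changed sign without GPNA column 1. On the opposite strand, 3194 of the 4141 exonic bases of GLS2 are shared with SPRYD4, whose level was 6.67 CPM without inhibitor and 5.02 CPM under BenSer, and whether the counting used strand is not given in the sources used here. Another protein-coding gene, on the same strand and not listed, shares 234 exonic bases with GLS2. The GLS2 values are therefore uncertain.

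In the proline pathway, ALDH18A1 of the initial step and PYCR1, a reductase of the last step, differed from the control in opposite directions. Both differences were of ordinary size. With GPNA, 53.1% (ALDH18A1) and 36.4% (PYCR1) of all genes tested lay at least as far from 0, and with BenSer 42.1% and 49.9%. ALDH18A1 (ENSG00000059573), which converts glutamate to the semialdehyde that cyclises to pyrroline-5-carboxylate, lies on chromosome 10 from 97365698 to 97416468. It had 51.1 and 50.8 CPM in control cells, 48.3 and 46.5 CPM with GPNA, and 44.3 and 45.4 CPM with BenSer. These groups did not overlap and descended, with log2 differences of -0.10 with GPNA (-0.18 to -0.021) and -0.18 with BenSer (-0.26 to -0.10). PYCR1 (ENSG00000183010), a mitochondrial reductase that forms proline, lies on chromosome 17 from 79890260 to 79900288. It had 24.8 and 26.7 CPM in control cells, 29.8 and 27.5 CPM with GPNA, and 28.5 and 29.0 CPM with BenSer. Both treated groups lay above the control and overlapped each other, with log2 differences of 0.15 with GPNA (0.041 to 0.26) and 0.15 with BenSer (0.049 to 0.25). PYCR1 shares 408 exonic bases with MYADML2 on the same strand and 450 with a long noncoding RNA on the other, neither of which is listed. PYCRL, a reductase of the same family, did not follow PYCR1. It was at -0.14 with GPNA (-0.29 to 0.013) and -0.78 with BenSer (-0.94 to -0.62).

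With GPNA, the treated columns lay outside the range of the control columns for 4 of the 9 enzymes (ASNS and PYCR1 above, GOT2 and ALDH18A1 below), which was so for 56.7% of all genes tested. With BenSer they did for all 9 enzymes, 5 above and 4 below, against 66.0% of all genes. Of all genes, 22.4% lay above and 34.4% below with GPNA, and 28.5% above and 37.5% below with BenSer. The columns are near-duplicates, so these are separations between single samples.

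Relative levels of the enzymes were compared per kb of their canonical transcript in GENCODE. In the control, GOT2 had the highest level at 37.2 CPM per kb, followed by ALDH18A1 (15.2), GOT1 (14.2), ASNS (12.3), GLUL (11.6), PYCR1 (11.4) and GLUD1 (9.93), with GPT2 (3.52) and GLS2 (1.94) below them. ASNS was the fourth in this order in the control. With GPNA it reached 20.4 CPM per kb, after GOT2 at 32.5, and with BenSer 28.5 CPM per kb, beside GOT2 at 27.2. This order depends on the length chosen, since reads were counted per gene and not per transcript. The merged exons of ASNS span 4896 bases against 2385 in the canonical transcript, and those of GOT2 3751 against 2421. The order therefore holds for canonical lengths only.

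Ratios of reads between enzymes within a library do not depend on the scaling to the library total. Pairs were chosen after the values had been seen. For ASNS and GOT2, the enzyme that makes asparagine and the mitochondrial source of its aspartate substrate, the control columns held 0.330 and 0.324 ASNS reads per GOT2 read. This ratio was 0.607 and 0.634 with GPNA and 1.00 and 1.06 with BenSer. It was thus 1.90 times the control ratio with GPNA (95% conditional interval 1.75 to 2.05) and 3.15 times with BenSer (2.93 to 3.40).

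The GPT2 to GOT2 ratio was 0.163 and 0.149 in the control columns, 0.175 and 0.170 in the GPNA columns, and 0.302 and 0.309 in the BenSer columns. Relative to the control it was 1.95 times as high with BenSer (1.76 to 2.17) and 1.11 times with GPNA (0.986 to 1.25). For PYCR1 and ALDH18A1, the ratio was 0.485 and 0.526 in the control columns, 0.616 and 0.592 in the GPNA columns, and 0.642 and 0.637 in the BenSer columns, which is 1.20 (1.09 to 1.32) and 1.27 (1.15 to 1.39) times the control. The GOT1 to GOT2 ratio was 0.323 and 0.302 in the control columns, 0.335 and 0.359 in the GPNA columns, and 0.332 and 0.379 in the BenSer columns, without overlap with the control. It was 1.11 (1.02 to 1.21) and 1.13 (1.04 to 1.24) times the control, with both intervals above 1.

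**Figure D4:**
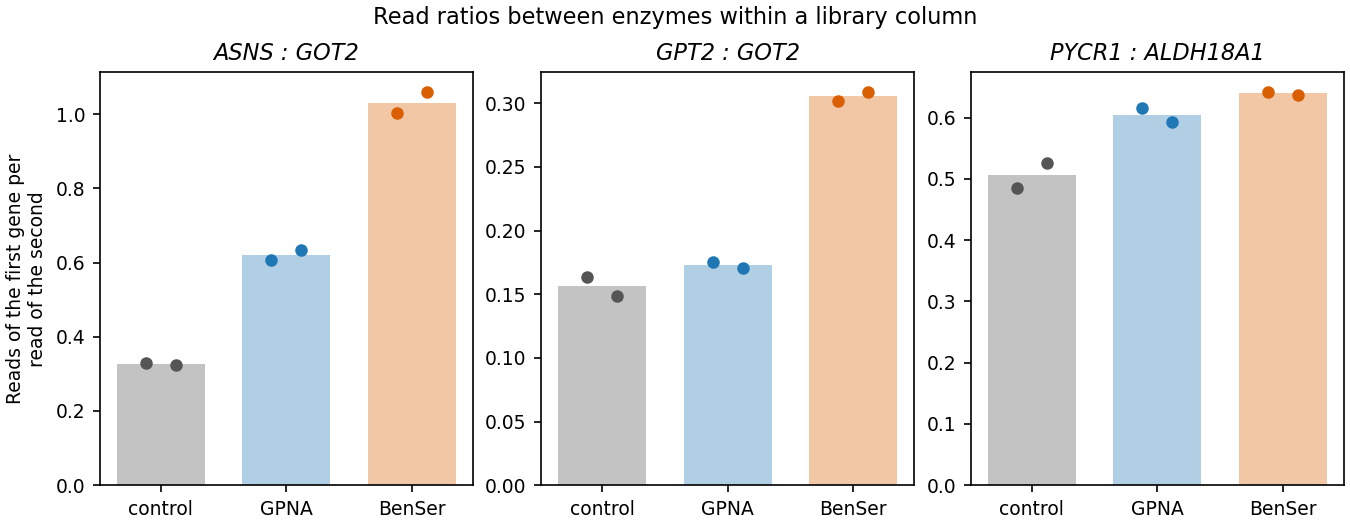
Reads of ASNS per GOT2 read, GPT2 per GOT2 read and PYCR1 per ALDH18A1 read (y axes, from 0) in control, GPNA and BenSer columns, with bars for the mean and points for columns 1 and 2. ASNS reads go from 0.324 to 0.330 per GOT2 read in the control to 1.00 to 1.06 with BenSer, while the GPT2 to GOT2 ratio stands apart with BenSer alone.

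A list of 56 other genes of glutamine, glutamate, asparagine, proline and neighbouring nitrogen metabolism was examined next, of which 49 were in the tables. GLUD2, GOT1L1, TAT, GAD2, PRODH2, GATB and GGT5 were not listed by these names, and BCAT1 (GPNA comparison) and ASPG (BenSer comparison) had too few reads. With GPNA, 1 of 48 genes was at least 1.5-fold higher and 0 were lower, where 0.34% of all genes were higher and 0.0637% lower. With BenSer, 5 of 48 were higher and 2 lower, where 1.96% of all genes were higher and 1.58% lower. The median was 0.014 with GPNA and -0.061 with BenSer, beside -0.028 over all genes.

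CHAC1, which degrades glutathione and is known as a stress-response gene, was the gene called with GPNA. It had 3.83 and 3.99 CPM in control cells, 7.60 and 7.86 CPM with GPNA and 11.1 and 11.6 CPM with BenSer, with log2 differences of 0.83 (0.62 to 1.04) and 1.33 (1.13 to 1.52). These values were larger than those of ASNS with either inhibitor, but the counting intervals of CHAC1 and ASNS overlapped in both comparisons. With BenSer, PSAT1, the aminotransferase of serine synthesis, was higher by 0.70 (0.60 to 0.81) and had a difference of 0.35 (0.23 to 0.46) with GPNA. ABAT, which degrades GABA, was higher by 0.62 with BenSer (0.35 to 0.89), P4HA2, a collagen prolyl hydroxylase subunit, by 0.61 (0.52 to 0.70), and ASS1, which joins citrulline to aspartate, by 0.60 (0.49 to 0.71).

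These 3 genes lay near the threshold. Without control column 1, ABAT was at 0.52 and ASS1 at 0.58, and without BenSer column 1 ABAT was at 0.57, so that none of these values reached 1.5-fold. P4HA2 was at 0.56 without control column 2. ASL was lower by 1.5-fold without control column 2 (-0.59, against -0.50 with both columns) and CHAC2 without BenSer column 1 (-0.66, against -0.56).

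The 2 genes called lower with BenSer were PYCRL and CTPS1. PYCRL, a reductase of the same family as PYCR1, had 12.9 and 13.3 CPM in control cells, 12.7 and 10.8 CPM with GPNA and 7.64 and 6.79 CPM with BenSer (log2 difference -0.78, -0.94 to -0.62). CTPS1, which makes CTP with the amide nitrogen of glutamine, had 55.2 and 50.9 CPM in control cells, 45.1 and 43.8 CPM with GPNA and 31.9 and 34.0 CPM with BenSer (-0.67, -0.75 to -0.59).

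Among 11 glutamine amidotransferase genes, 5 had intervals below 0 with GPNA (CAD, PPAT, PFAS, GMPS and CTPS1) and 1 above 0 (GFPT1, of hexosamine synthesis), where 20.1% of all genes tested had intervals below 0 and 9.78% above. With BenSer, 6 had intervals below 0 (the same genes and QRSL1) and 5 above 0 (CTPS2, GFPT1, GFPT2, NADSYN1 and GATC), where the shares of all genes were 25.8% and 18.2%. Among these, the genes of nucleotide synthesis were not all on 1 side with BenSer, where CTPS2 had an interval above 0. With GPNA, none of them had an interval above 0. CAD, PPAT, PFAS, GMPS and CTPS1 had log2 differences from -0.41 (CAD) to -0.16 (PPAT and GMPS) with GPNA and from -0.67 (CTPS1) to -0.35 (PPAT) with BenSer. CTPS2, the other CTP synthase, was at 0.10 with GPNA (-0.0071 to 0.21) and 0.17 with BenSer (0.067 to 0.27). GFPT1 was at 0.13 and 0.10. Whether a counting interval includes 0 depends on the reads of a gene. The shares given are over genes of all levels and are not matched to the amidotransferase genes.

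Of the asparaginases on the list, only ASRGL1 had enough reads in both comparisons. ASRGL1 was at -0.46 with GPNA (-0.71 to -0.22) and -0.38 with BenSer (-0.61 to -0.15). ASPG, with a level of at most 0.349 CPM in any column, had 4 summed reads in the control and 16 with GPNA. It passed the read minimum only through the GPNA libraries, so its side of the control is not read as a result. In the BenSer comparison it had too few reads.

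**Figure D5:**
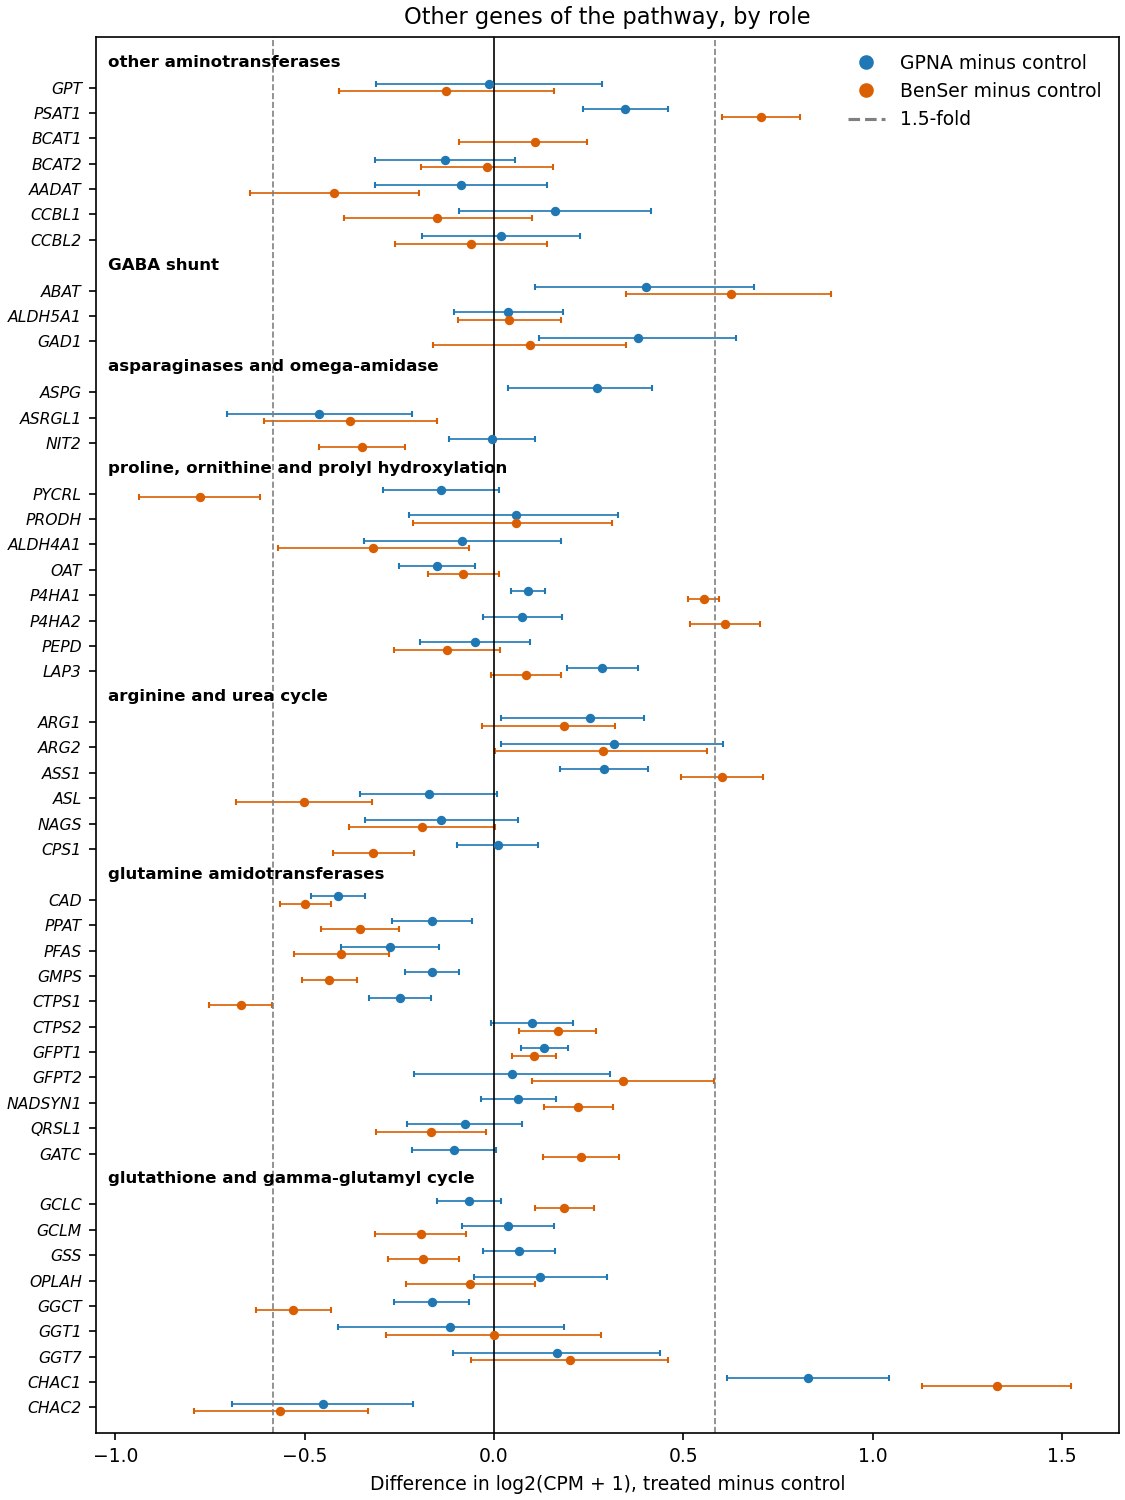
Difference in log2(CPM + 1) from the control (x axis) for 47 other genes of the pathway (y axis, grouped by role), with 95% counting intervals and dashed lines at 1.5-fold. CHAC1 (0.83 and 1.33) lies above the 1.5-fold line with both inhibitors, and of the amidotransferases of nucleotide synthesis CAD, PPAT, PFAS, GMPS and CTPS1 lie below 0 while CTPS2 (0.10 and 0.17) lies above. The CTPS2 interval with GPNA includes 0.

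ASNS had the largest difference of the 9 enzymes in either comparison. Among 7945 genes of at least 10 CPM in the control, the 5 whose pair of log2 differences lay nearest to that of ASNS over the 3 groups were DDX58, APOL6, TFF1, PARP9 and PARP10, at Euclidean distances of 0.068 to 0.086. Both comparisons share the control, so likeness here means 3 group levels and not independent contrasts. DDX58, a sensor of viral RNA, was the nearest with 0.66 with GPNA and 1.13 with BenSer. ATF4 itself was at 112 CPM in untreated cells and differed by 0.31 on the log2 scale with GPNA (0.26 to 0.37) and by 0.55 with BenSer (0.51 to 0.60). SLC1A5, which encodes ASCT2, differed by 0.043 with GPNA (-0.044 to 0.13) and by 0.58 with BenSer (0.50 to 0.65).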

How the data were processed

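Total RNA of PC-3 cells was sequenced from stranded paired-end libraries, which the authors trimmed and mapped to hg19/GRCh37.p13 with TopHat2 before counting reads per gene. HTSeq 0.6.2p2, Bowtie2 and DESeq are also named in the submitters' processing notes, and the strand setting of the counting is not given in the sources used here. The deposited values are CPM, made by the authors from the reads of a gene and the library total, although the columns are named as counts. All values (100%, tolerance 0.001 reads) were whole reads over that total, and reads were recovered. Of 4 value columns per group, columns 1 and 2 match a label, while the paper describes tests on 4 replicates per group. The other 6 distinct columns were seen when the tables were opened but were not used here, and the deposited fold changes, p-values and false discovery rates of the authors' tests were not used either. Some pathway genes, counted in the list, are not reported here by name.

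Columns 1 and 2 were compared by a chi-square statistic, leaving out genes under 20 reads in a pair, and taken as 1 sample. Their mean was compared as log2(CPM + 1) wherever a gene averaged 5 or more reads per column in 1 of the groups compared. This scale understates changes of low genes. Intervals are Clopper-Pearson intervals at 95%, and ratios have exact conditional intervals. They cover counting error only, since PCR copies are not independent molecules. The enzymes, lists, threshold and rule for named genes (all enzymes, pathway genes at 1.5-fold, the 5 nearest genes, ATF4 and SLC1A5) were chosen with earlier results of these data known, and pathway roles, read ratios and the pathway genes named at under 1.5-fold after the values were seen.

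As alternatives, edgeR 4.0.16 (quasi-likelihood test), DESeq2 1.42.0 and limma 3.58.1 in R 4.3.3 were run on the recovered reads or on log2(CPM + 1) with columns as samples, which compares libraries and not treatments. The steps were tested on simulated data. Other scalings, pseudocounts, filters, thresholds and left-out columns were also tried. Python 3.11.15, numpy 2.4.6, pandas 2.3.3, scipy 1.17.1 and matplotlib 3.10.9 were used. Gene positions come from GENCODE lifted to GRCh37.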

Additional observations from a re-analysis of the deposited data

How the results depend on the processing

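The log2 difference of each enzyme stayed within its counting interval under all 15 alternatives per comparison, and ASNS ranged from 0.70 to 0.77 with GPNA and from 1.17 to 1.25 with BenSer. The alternative filters among these decide only which genes are compared and cannot change a log2 difference. Signs changed only for GLS2, GLUD1 and GPT2 with GPNA, when single columns were left out. ASNS was called at 1.5-fold under every pseudocount, scaling and left-out column.

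Counts moved with the threshold, the pseudocount and the use of a test. With GPNA, 0 of the 9 enzymes, 0 pathway genes and 9 of all genes reached 2-fold. At 1.3-fold there were 1 enzyme, 6 pathway genes and 544 of all genes. With BenSer, 1 enzyme (ASNS), 1 pathway gene and 92 of all genes reached 2-fold. At 1.3-fold there were 3 enzymes, 16 pathway genes and 2341 of all genes. A pseudocount of 0.1 gave 4 pathway genes and 1531 of all genes with GPNA and 2602 of all genes with BenSer, and one of 0.5 gave 232 and 1012 of all genes. Without single columns, 99 to 113 genes were called with GPNA, of which 23 to 27 were lower in place of 12 (for control and GPNA columns alike), and 696 to 749 with BenSer. With BenSer 371 genes were higher and 300 lower, and this split was 433 and 213 with TMM scaling. Scalings moved the median of all genes by at most 0.032.

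Taking columns as samples at an adjusted p under 0.05, which compares libraries only, edgeR called 3 enzymes, 13 pathway genes and 2856 of all genes with GPNA, and 7, 29 and 6803 with BenSer. DESeq2 called 2, 8 and 979 with GPNA and 4, 23 and 3955 with BenSer, and limma 2, 17 and 3363 with GPNA and 7, 29 and 6826 with BenSer. With the column number as a replicate block, edgeR called 2, 13 and 2314 with GPNA and 7, 28 and 6179 with BenSer. The numbers do not pair the columns, since same-numbered deviations correlated at 0.017 to 0.023 over 13240 genes. Of the 9 enzymes, GLS2 rests on the fewest reads (214 in the control). With only columns 1 and 2 used and counted as 1 sample per group, no spread between cultures is measured here.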
